A study of Mus musculus with 41 samples.

Results

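The report describes 9 chemokine genes that attract lymphocytes and dendritic cells, in the lung and liver of mice that had inhaled titanium dioxide nanoparticles (nanoTiO2) or clean air. The genes were Ccl5, Ccl17, Ccl19, Ccl20, Ccl22, Cxcl9, Cxcl10, Cxcl12 and Cxcl13, and every array probe whose gene name equalled 1 of these symbols was taken. They made up 12 of the 41174 probes and 9 of the 27962 gene names of the array, because Ccl5, Ccl19 and Cxcl12 each had 2 probes. Of a pair, the probe with the brighter sample signal is named by the gene alone and the other as the second probe.

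Female C57BL/6 mice inhaled nanoTiO2 at 40 mg/m3 for 1 hr per day on 11 days and were killed 5 days after the last exposure, and control mice breathed filtered air on the same schedule. Lung RNA came from 7 exposed and 6 control mice and liver RNA from 7 exposed and 8 control mice, all taken from a part of the organ. Per the methods the mice were of the C57BL/6BomTac substrain. The labels give the age only as the equivalent of gestation day 4, and per the methods the mice of both groups had been time mated but were not pregnant. The particles were a surface-coated rutile product, so that particle and coating cannot be told apart. Every array held the RNA of 1 mouse in the Cy5 channel and a purchased reference RNA, pooled from 11 mouse cell lines, in the Cy3 channel. A level is therefore the log2 ratio of sample over reference signal for 1 probe. Levels of different probes were not compared with each other.

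By the scanner software's own test, the sample signal was well above background at a median of 66.3% of the spots in exposed lung, 62.9% in control lung, 63.6% in exposed liver and 61.3% in control liver. Lung epithelial markers had mean log2 ratios of 3.80 to 4.66 in control lung and of 0.15 to 0.61 in control liver, and hepatocyte markers of 0.33 to 1.09 and 5.29 to 6.13. Heart muscle markers reached 1.34 to 3.76 in control lung against -0.85 to -0.24 in control liver. Exposed mice lay at the first 2 positions of a slide and control mice at the last 2, and the effects of position and of exposure therefore cannot be told apart. Lung and liver arrays were scanned with different software versions, which leaves tissue confounded with the scan series.

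Chemokines are small secreted proteins that bind to receptors on leukocytes and direct the movement of these cells. Ccl17 and Ccl22, made mainly by dendritic cells and macrophages, bind Ccr4 on T helper 2 and regulatory T cells. Ccl19 guides Ccr7-bearing T cells and mature dendritic cells into lymph nodes, and Ccl20 attracts Ccr6-bearing dendritic cells, B cells and T cells to epithelia. Cxcl9 and Cxcl10 are induced by interferon and bind Cxcr3 on activated T and natural killer cells, and Ccl5, among others, binds Ccr1 and Ccr3. Cxcl12 and Cxcl13, made by stromal cells, hold leukocytes in place through Cxcr4 and bring B cells into follicles through Cxcr5.

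The main question was which of these genes differed between exposed and control lung. In the lung, Ccl17 and Ccl19 were higher in exposed mice, by 1.86-fold and, on the second Ccl19 probe, by 1.39-fold, and no other member probe passed the test. These were 2 of 12 member probes, both higher, where 0.202% of all 41155 tested probes passed in either direction and 0.180% were higher (adjusted p under 0.05, limma with Benjamini-Hochberg adjustment over all probes). At an unadjusted p under 0.05, 7 of the 12 probes passed, beside 7.13% of all probes. The median difference over the 9 genes was 0.30 on the log2 scale and over all probes 0.0015. With these arrays of whole tissue, more cells of a type and more RNA per cell cannot be told apart.

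**Figure D1:**
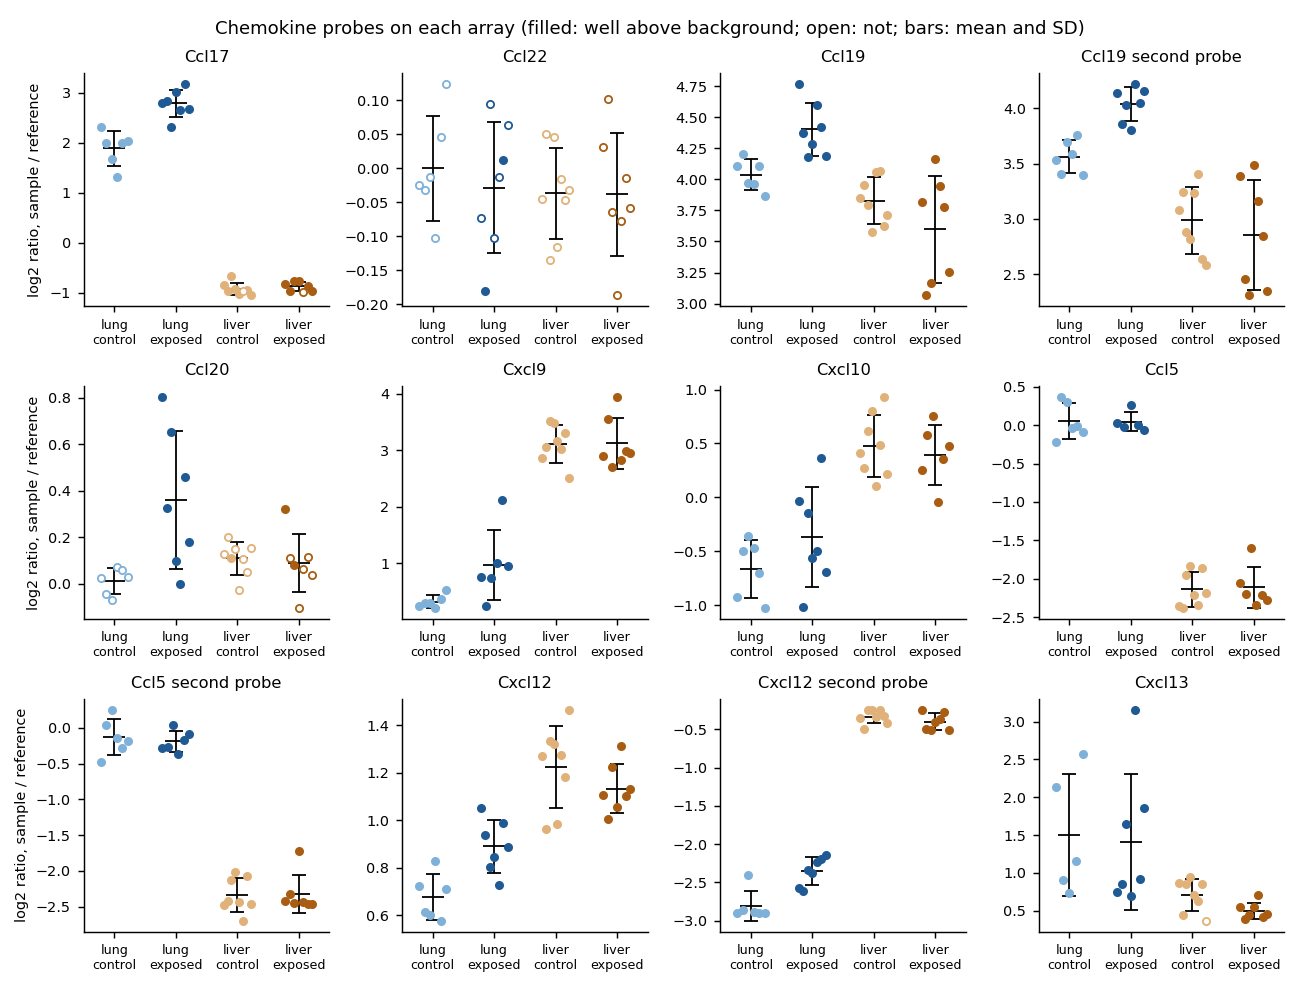
Log2 ratio of sample over reference signal (y axis) of each of the 12 member probes on every array, by group (x axis), with bars for the mean and SD. Filled points were well above background and open points were not. Ccl17 stood at 2.32 to 3.18 in exposed and 1.32 to 2.32 in control lung, and near -0.9 on the liver arrays.

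Ccl17 had log2 ratios in the lung of 2.32, 2.80 and 3.18 (lowest, median and highest) in the 7 exposed mice and of 1.32, 2.00 and 2.32 in the 6 control mice. The exposed mice lay above every control mouse except mouse 12, which was level with the highest control mouse, 24. The means were 2.79 ± 0.28 (SD, n = 7) and 1.89 ± 0.35 (SD, n = 6). Ccl17 rose by 0.89 on the log2 scale (SE 0.15), a fold of 1.86 with a 95% interval of 1.49 to 2.33 (adjusted p = 0.021, limma). An exact two-sided permutation test, over the 1716 ways of splitting the 13 mice, gave p = 0.00175. Within each of the 3 slides that held both groups the exposed mean was the higher, by 0.66 to 0.82. The call was lost without exposed mouse 1 (adjusted p = 0.051), exposed mouse 13 (adjusted p = 0.056) or control mouse 27 (adjusted p = 0.063), and with the background model fitted on all spots (0.47, adjusted p = 0.65) or median centering (0.95, adjusted p = 1.00). In the reference channel alone the exposed arrays were higher by 0.19 for this probe (unadjusted p = 0.0049, adjusted p = 0.95, limma). No member passed in that channel (0 of 12 probes), beside 0.00972% of all probes.

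The promoter of Ccl17 is shown because this gene had the largest lung difference of the members in the setting reported here. It lies on the plus strand at chr8:94810203-94810452 of GRCm38.p6, here as the 250 bases before the RefSeq start. Capitals mark matches to TTCNNNGAA, the core that STAT factors bind, and to TTCNNNNGAA, the spacing that STAT6 of the interleukin-4 pathway prefers. Both strands were searched.
Ccl17: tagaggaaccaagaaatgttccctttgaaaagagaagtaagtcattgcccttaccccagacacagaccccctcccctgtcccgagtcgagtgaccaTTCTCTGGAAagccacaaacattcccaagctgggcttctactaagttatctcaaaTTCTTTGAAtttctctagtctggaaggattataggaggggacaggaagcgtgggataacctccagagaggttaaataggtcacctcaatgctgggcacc
The TTCNNNNGAA match began 154 bases and the TTCNNNGAA match 99 bases before the start. Of all 32841 promoters of the table, 5.85% held TTCNNNNGAA and 7.02% TTCNNNGAA in the same window, and the other 7 member promoters held neither.

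Ccl22, the other Ccr4 ligand, was at the limit of detection. Its log2 ratios in the lung were -0.18, -0.01 and 0.09 (lowest, median and highest) in exposed and -0.10, -0.02 and 0.12 in control mice. The ranges overlapped, with 2 of 7 exposed mice below every control mouse. It was well above background on 2 of 7 exposed lung arrays, on 0 of 6 control lung arrays and on none of the 15 liver arrays. No fold is given for so dim a probe, and the fitted difference of -0.03 did not pass (adjusted p = 0.93, limma).

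Ccl19 was measured by 2 probes. On the second probe the log2 ratios were 3.81, 4.05 and 4.22 (lowest, median and highest) in the 7 exposed lungs and 3.40, 3.56 and 3.76 in the 6 control lungs. The groups did not overlap, as was the case in this direction for 0.336% of all probes. The means were 4.04 ± 0.15 (SD, n = 7) and 3.56 ± 0.15 (SD, n = 6). The second probe rose by 0.47 (SE 0.077), a fold of 1.39 with a 95% interval of 1.24 to 1.56 (adjusted p = 0.015, limma), and an exact permutation test gave p = 0.00117. The call held without any 1 of the 13 arrays (adjusted p 0.0086 to 0.047). It was lost with slide as a fixed block (0.46, adjusted p = 0.064), with the Cy5 signal alone (0.61, adjusted p = 0.051), with the scanner's processed signals (0.20, adjusted p = 0.69) and with median centering (0.54, adjusted p = 1.00), and the direction turned with the background model fitted on all spots (-0.18, adjusted p = 0.89).

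On the main Ccl19 probe the log2 ratios were 4.18, 4.37 and 4.77 in exposed and 3.87, 4.04 and 4.20 in control lungs, and 5 of 7 exposed mice lay above every control mouse. The difference of 0.36 did not pass (adjusted p = 0.21, limma, exact permutation p = 0.0035), and it too turned with the background model fitted on all spots (-0.24). Averaging both probes into 1 value per gene gave 0.42 (adjusted p = 0.017). The 2 probes correlated over the lung arrays at r = 0.74 (n = 13) as a description. In the reference channel the exposed arrays were higher by 0.26 and 0.20 on the main and second probe (unadjusted p = 0.0043 and 0.0085, adjusted p = 0.95 for each, limma).

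Both probes are shown because they disagreed on the call. The first 30 of their 60 bases are given.
Ccl19: gtggctagaacaccatctctctgtggctag
Ccl19 second probe: ctcctgatgctctgtcccagacctaaccca
The scanner annotation placed them at 5902465-5902524 and 5902385-5902444 of the unplaced sequence Un_random of mm7, plus strand. The RefSeq table lists pseudogenes and a further locus that carry the name of Ccl19, so that copies of the gene may share these signals and a value cannot be assigned to 1 locus. The 250 bases before the RefSeq start of Ccl19, at chr4:42756366-42756615 of GRCm38.p6 on the minus strand, held 1 match to GAAANNGAAA, an interferon response element, in capitals and 208 bases before the start.
Ccl19: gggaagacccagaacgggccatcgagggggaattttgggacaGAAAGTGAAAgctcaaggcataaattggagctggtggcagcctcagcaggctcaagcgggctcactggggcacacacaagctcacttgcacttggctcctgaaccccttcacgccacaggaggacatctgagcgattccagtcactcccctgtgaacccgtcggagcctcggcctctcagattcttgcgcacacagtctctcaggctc
GAAANNGAAA was found on either strand in 2.98% of all promoters, and among the 8 member promoters in Ccl19 and Cxcl10.

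Ccl20, the Ccr6 ligand of epithelial cells, was near background in the lung. It was well above background on 7 of 7 exposed and 0 of 6 control lung arrays. The share of all probes with such a split was not counted, and over all spots the medians were 66.3% and 62.9%. The flag did not follow the level throughout, as exposed mouse 19 at 0.00 carried it and control mouse 29 at 0.07 did not. Within slides the difference ran from 0.0063 to 0.65. The log2 ratios were 0.00, 0.33 and 0.80 (lowest, median and highest) in exposed and -0.07, 0.03 and 0.07 in control lungs. Only exposed mouse 19 lay among the control mice. The fitted difference of 0.35 (SE 0.11) did not pass (adjusted p = 0.48, limma, exact permutation p = 0.0146), and no fold is given because the control signals were not well above background. Under the processing alternatives the difference ranged from 0.14 with the background model fitted on all spots to 1.77 with the scanner's processed signals, and none passed.

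Cxcl9 and Cxcl10, the interferon-induced Cxcr3 ligands, were uneven among exposed mice. Cxcl9 had log2 ratios of 0.25, 0.86 and 2.12 in 6 exposed lungs, mouse 12 having no value after its spot was left out, and of 0.21, 0.30 and 0.53 in 6 control lungs. Exposed mouse 20 stood highest and exposed mouse 7 lay among the control mice. The difference of 0.65 (SE 0.22) was a fold of 1.57 with a 95% interval of 1.12 to 2.18 and did not pass (adjusted p = 0.54, limma, exact permutation p = 0.0108). With the marked spot kept it was 0.61 (adjusted p = 0.52). It was 0.42 without exposed mouse 20 (adjusted p = 0.80) and ran from 0.33 with slide as a fixed block to 1.48 with the scanner's processed signals, and none of these passed. Exposed mice 20 and 23 shared slide 4, which held no control lung. Within the 2 slides that had Cxcl9 values of both groups, the difference was 0.23 and 0.43. Cxcl10 had log2 ratios of -1.01, -0.49 and 0.37 in exposed and -1.03, -0.60 and -0.35 in control lungs. Mice 20 and 7 were again the highest and the lowest of the exposed group, and the groups overlapped. The difference of 0.30 had a fold interval of 0.93 to 1.62 (adjusted p = 0.78, limma, exact permutation p = 0.19). After removal of the group means, Cxcl9 and Cxcl10 correlated at r = 0.67 over 12 lung arrays, the highest of all member pairs, as a description of probes that share each array.

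The promoters of both genes are shown for comparison with Ccl19. Capitals mark GAAANNGAAA and the NF-kB consensus. The Cxcl10 window lies at chr5:92348890-92349139 and the Cxcl9 window at chr5:92328080-92328329 of GRCm38.p6, both on the minus strand.
Cxcl10: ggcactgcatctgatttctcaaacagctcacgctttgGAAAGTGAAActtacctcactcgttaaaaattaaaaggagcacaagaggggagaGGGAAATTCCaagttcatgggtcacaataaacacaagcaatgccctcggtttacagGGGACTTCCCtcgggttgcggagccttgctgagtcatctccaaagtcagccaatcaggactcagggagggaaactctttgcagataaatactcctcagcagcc
Cxcl9: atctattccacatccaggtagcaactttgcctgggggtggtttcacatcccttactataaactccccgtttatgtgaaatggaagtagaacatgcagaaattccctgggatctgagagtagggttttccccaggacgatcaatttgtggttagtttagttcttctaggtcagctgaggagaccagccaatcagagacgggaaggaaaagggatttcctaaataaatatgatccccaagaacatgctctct
In Cxcl10 the GAAANNGAAA match began 213 bases and the 2 NF-kB matches 159 and 103 bases before the start, and the Cxcl9 window held no match to any of the 4 motifs. The NF-kB consensus was found on either strand in 3.90% of all promoters and, among the members, in Cxcl10 and Ccl20. The promoter table matched 8 of the 9 genes.

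Ccl5, a T cell and natural killer cell product, showed no difference in the lung beyond the spread. Its log2 ratios were -0.06, 0.01 and 0.26 in 5 exposed mice, mice 1 and 19 having no value after their spots were left out, and -0.22, -0.02 and 0.37 in 6 control mice. The exposed range lay inside the control range. The difference was -0.01 with a fold interval of 0.85 to 1.16 (adjusted p = 0.99, limma). On the second probe, without exposed mouse 12, it was -0.06 (adjusted p = 0.93, limma). The 2 probes correlated at r = 0.84 over 10 lung arrays and 0.95 over 14 liver arrays.

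Cxcl12 was measured by 2 probes designed on different transcript variants. The main probe, on transcript variant 2, had log2 ratios of 0.72, 0.89 and 1.05 in exposed and 0.57, 0.66 and 0.83 in control lungs. All 7 exposed mice lay above the control mean and 5 above every control mouse. The difference of 0.22 (SE 0.057) did not pass (adjusted p = 0.27, limma, exact permutation p = 0.0052). The second probe, on transcript variant 1, had log2 ratios of -2.62, -2.34 and -2.14 in exposed and -2.90, -2.89 and -2.41 in control lungs. The control mice other than mouse 27 lay together at the low end, and mouse 27 lay among the exposed mice. The difference of 0.46 (SE 0.096) was a fold of 1.37 with a 95% interval of 1.19 to 1.58 and did not pass (adjusted p = 0.085, limma, exact permutation p = 0.0041). It passed without control mouse 27 (0.54, adjusted p = 0.0085) and with slide as a random block (0.44, adjusted p = 0.048). Averaged into 1 value per gene the difference was 0.34 (adjusted p = 0.0061). The 2 probes correlated at r = 0.42 over 13 lung arrays.

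The probes are shown because they were designed on different transcript variants. By the scanner annotation (mm7, plus strand) the main probe lies at chr6:117207552-117207611 and the second at chr6:117200799-117200858, and the first 30 bases of each are given.
Cxcl12: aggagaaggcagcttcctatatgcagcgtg
Cxcl12 second probe: gaattaatcataaacggaagtttaaatgag

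Cxcl13, the B cell attractant of follicles, varied most among the mice in the lung, without a difference between the groups beyond that spread. Its log2 ratios were 0.69, 0.92 and 3.16 in the 7 exposed mice and 0.74, 1.16 and 2.58 in 5 control mice, mouse 24 having no value after its spot was left out. High and low mice were found in both groups, with exposed mouse 19 and control mice 34 and 26 at the top. The difference of -0.09 (SE 0.43) had a fold interval of 0.49 to 1.79 (adjusted p = 0.98, limma). Within slides it ran from -1.33 to 0.82.

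**Figure D2:**
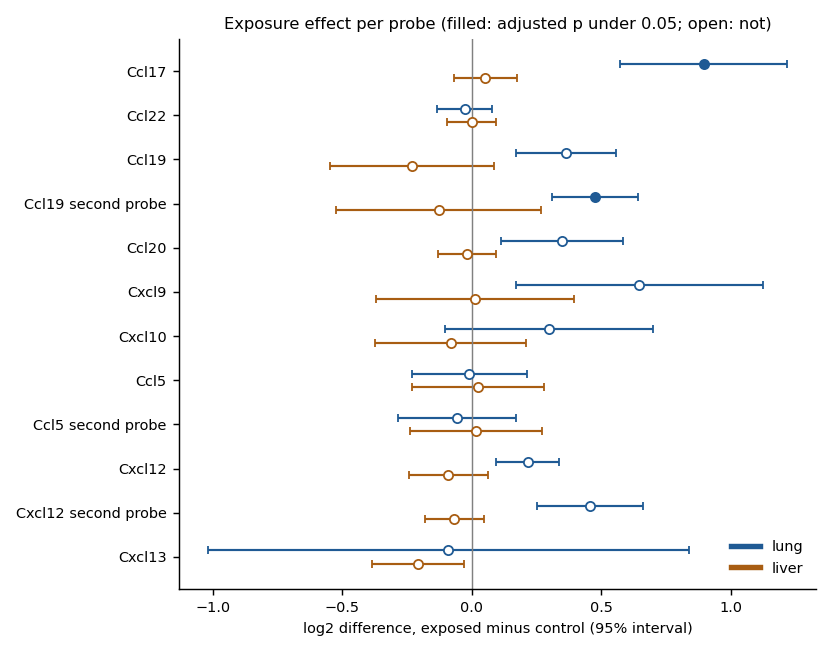
Log2 difference of exposed minus control mice (x axis) with its 95% interval for each member probe (y axis), in blue for lung and in brown for liver. Filled points passed an adjusted p under 0.05 and open points did not. Ccl17 at 0.89 and the second Ccl19 probe at 0.47 in the lung are the filled points.

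The liver showed whether the same genes changed away from the site of exposure. No member passed the test there (0 of 12 probes), and 0.00% of all 41143 probes passed (limma), while at an unadjusted p under 0.05 1 member probe passed beside 2.53% of all probes. The gene differences ran from -0.23 to 0.05 with a median of -0.02, beside -0.0039 over all probes. Cxcl13 was the member with an unadjusted pass. Its log2 ratios were 0.39, 0.45 and 0.70 in exposed and 0.36, 0.78 and 0.95 in control livers, and each exposed mouse lay below the control mean within overlapping groups. The difference of -0.21 did not pass (adjusted p = 1.00, limma, exact permutation p = 0.042). Ccl17 differed by 0.05 in the liver, with a fold interval of 0.95 to 1.13. Ccl19 had log2 ratios of 3.07, 3.78 and 4.16 in exposed and 3.58, 3.82 and 4.07 in control livers, where 3 of 7 exposed mice lay below every control mouse and 1 above. Its difference was -0.23 with a fold interval of 0.68 to 1.06 (adjusted p = 1.00, limma). Cxcl9 differed by 0.01, with a fold interval of 0.77 to 1.32, and exposed mouse 13 was the highest of its group for Cxcl9, Cxcl10, Ccl19 and Ccl5. Cxcl10 had no value in exposed mouse 12, and the main Ccl5 probe none in exposed mouse 1.

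The difference between the exposure effects of the organs was tested directly over all 28 arrays. The lung effect exceeded the liver effect for Ccl17 by 0.84 (adjusted p = 0.016, limma) and for the second Cxcl12 probe by 0.52 (adjusted p = 0.037, limma), 2 of 12 member probes, beside 0.155% of all 41163 probes in either direction and 0.136% with the larger lung effect. Organs of the same mouse carry the same number. With mouse as a block, the lung minus liver difference was taken within the 12 mice that had both organs. Neither probe passed in that fit (Ccl17 0.85, adjusted p = 0.16 and Cxcl12 second probe 0.56, adjusted p = 0.12, limma). It left out the arrays of mice with 1 organ, so that the set of arrays changed as well as the model. In the fit over all arrays, Ccl17 passed on leaving out any single array. Its call was also lost with the background model fitted on all spots (0.66, adjusted p = 0.44), the scanner's processed signals (0.52, adjusted p = 1.00) and median centering (0.84, adjusted p = 1.00). The second Cxcl12 probe passed on leaving out 7 of the 28 arrays in turn, namely exposed mice 1 and 7 and control mouse 27 of the lung and exposed mice 1 and 20 and control mice 26 and 45 of the liver, and did not pass without each of the others (adjusted p up to 0.084). For Ccl19 the differences were 0.60 on each probe (adjusted p = 0.66 and 1.00, limma). These comparisons share the samples of the separate lung and liver comparisons.

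In the control mice the members divided by organ. Ccl17, Ccl5 and Cxcl13 were higher in lung, Cxcl9, Cxcl10 and Cxcl12 were higher in liver, and Ccl20 and Ccl22 did not pass. Of 12 member probes 6 were higher and 4 lower in lung, where 57.8% of all probes passed, 29.3% higher and 28.5% lower in lung. A call was therefore common on these arrays.

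**Figure D3:**
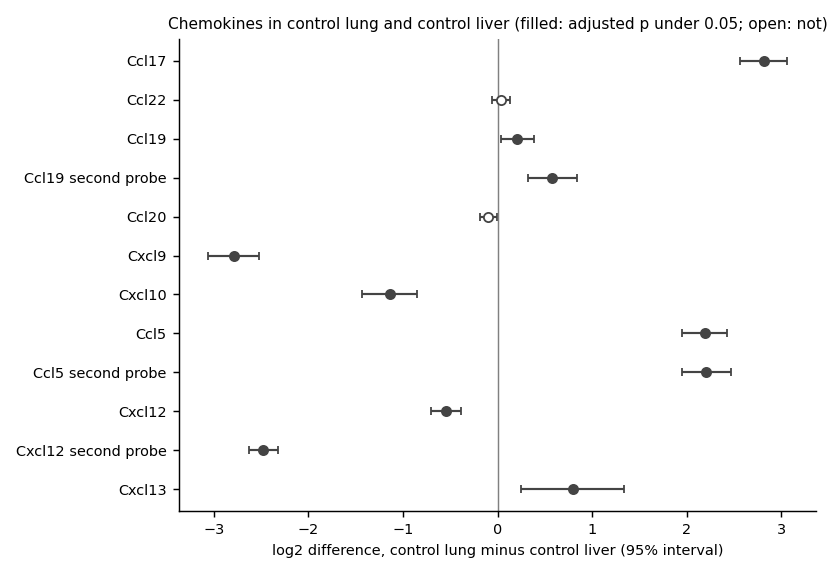
Log2 difference of control lung minus control liver (x axis) with its 95% interval for each member probe (y axis). Filled points passed an adjusted p under 0.05 and open points did not. The points run from -2.79 for Cxcl9 to 2.81 for Ccl17.

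Ccl17 had log2 ratios of -1.05, -0.96 and -0.67 (lowest, median and highest) in control liver, far below the 1.32 to 2.32 of control lung. The difference was 2.81, a 7.04-fold higher level in lung (adjusted p = 1.15e-12, limma). It passed under all 10 processing alternatives, from 2.47 with the background model fitted on all spots to 4.34 with the scanner's processed signals. Over the 4 groups the order was exposed lung, control lung, then exposed and control liver, which did not differ from each other beyond their spread. Ccl5 lay at -2.38, -2.20 and -1.83 in control liver and was 4.56-fold higher in lung on the main probe and 4.62-fold on the second (adjusted p = 1.70e-11 and 3.81e-11, limma). The groups of neither gene overlapped between organs, as for 41.2% of all probes.

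Cxcl13 had log2 ratios of 0.36, 0.78 and 0.95 in control liver and was 1.74-fold higher in lung (adjusted p = 0.014, limma). The call was lost with mouse as a block (adjusted p = 0.059) and with the scanner's processed signals (0.20, adjusted p = 0.72). The second Ccl19 probe was 1.49-fold higher in lung (0.58, adjusted p = 0.00051, limma), a call lost with the background model fitted on all spots (1.09, adjusted p = 0.057). The main Ccl19 probe was 1.16-fold higher (0.21, adjusted p = 0.041, limma) in this setting, but the direction turned without background correction (-0.04), in the authors' log2 values (-0.14) and with the scanner's processed signals, which called it lower in lung (-1.004, adjusted p = 0.0036). It was also lost with mouse as a block (0.15, adjusted p = 0.11) and without 8 of the 14 arrays in turn, those of lung mice 24, 26 and 32 and of liver mice 24, 27, 29, 37 and 45 (adjusted p up to 0.0996). No organ order is therefore given for Ccl19.

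Cxcl9 had log2 ratios of 2.51, 3.11 and 3.51 in control liver and of 0.21 to 0.53 in control lung. It was 6.91-fold higher in liver (adjusted p = 3.71e-12, limma). Cxcl10 lay at 0.10, 0.45 and 0.93 in control liver against -1.03 to -0.35 in control lung and was 2.21-fold higher in liver (adjusted p = 1.11e-06, limma), a log2 difference of -1.14 that reached -1.76 with the scanner's processed signals. For both genes the 2 liver groups lay highest and overlapped, followed by exposed and then control lung, whose difference did not pass the test. Cxcl12 differed in size between its probes. The main probe was 1.46-fold and the second probe 5.57-fold higher in liver (adjusted p = 6.16e-06 and 1.34e-14, limma), with log2 ratios of the second probe of -0.50, -0.33 and -0.24 in control liver and of -2.90 to -2.41 in control lung. The call of the main probe held under all 10 alternatives, of which 1 value per gene symbol averages both probes and gave -1.51. For the main probe by itself the log2 difference of -0.55 was smallest in the authors' log2 values, at -0.19.

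The receptors of these chemokines were taken as a group of 13 genes. None passed in the lung, and the median difference was 0.04, with 10 of 13 above 0. Cxcr4, the Cxcl12 receptor, lay at 0.24, 0.47 and 0.74 in exposed and 0.46, 0.81 and 1.10 in control lungs and differed by -0.30 (adjusted p = 0.58, limma). Of the receptors of Ccl19, which was called on its second probe only, and of Ccl17, Ccr7 differed by 0.11 (adjusted p = 0.81, limma) and Ccr4 was not well above background on any array. Ccr1 was not either, and Ccr3 was on 4 of 7 exposed and 0 of 6 control lung arrays. The share of all probes with such a split was not counted. The level of Ccr3 differed by 0.0027 in the lung (adjusted p = 0.997, limma). Its log2 ratios overlapped, at -0.01 to 0.35 in exposed and 0.04 to 0.30 in control lungs. The differences of the others were 0.16 for Darc, 0.18 for Ccr6, -0.12 for Cmkor1, the array's symbol for the second Cxcl12 receptor, 0.08 for Blr1, its symbol for Cxcr5, 0.04 for Ccbp2, -0.02 for Cxcr3 and 0.01 for Ccrl1. In control mice 8 of 13 receptors were higher and 2 lower in lung, beside 29.3% and 28.5% of all probes. Among the higher were Cmkor1 by 3.02, Ccbp2 by 2.65, Cxcr4 by 2.35, Ccr7 by 2.15, Blr1 by 1.80 and Ccr6 by 1.63 on the log2 scale. The 2 called lower were Darc, by -0.33, and Ccr4, which was below background in both organs.

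Other ligands of the same receptors were on the array for 10 of 12 genes, and 1 passed in the lung, beside 0.202% of all probes. Ccl7, a monocyte attractant, had log2 ratios of -2.06, -1.95 and -1.55 in exposed and -3.11, -2.94 and -2.62 in control lungs. Its groups did not overlap, as in this direction for 0.336% of all probes. Ccl7 rose by 1.06, or 2.09-fold (adjusted p = 3.93e-05, limma). Ccl8 differed by 0.86 and Ccl3 by 0.37 (adjusted p = 0.18 for each, limma), and Ccl25 by -0.09. The median of this group was 0.13.

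**Figure D4:**
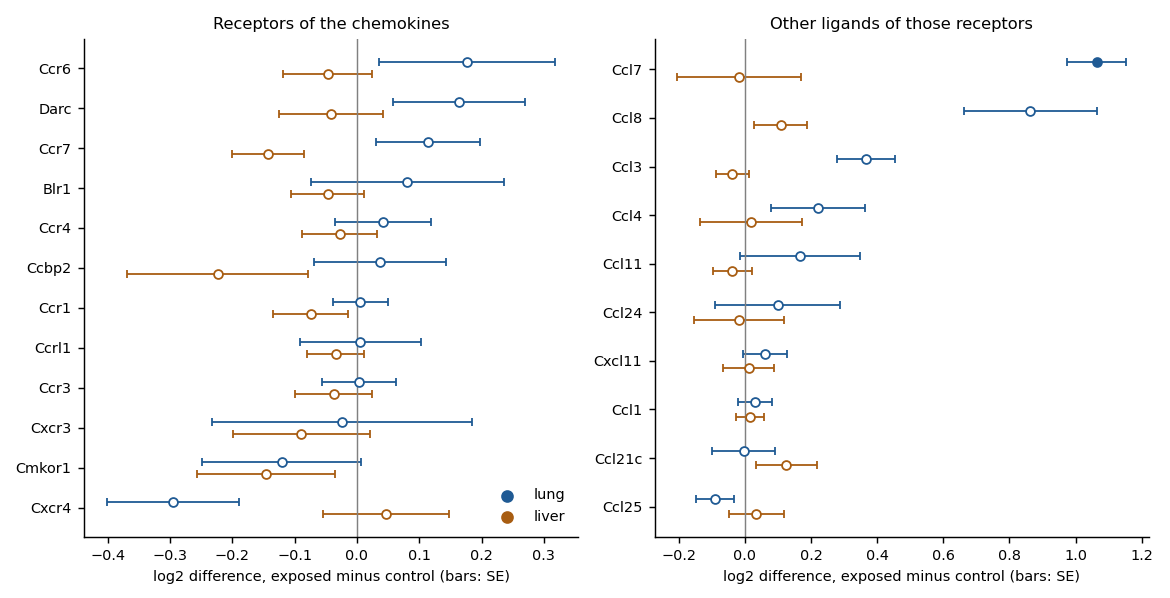
Log2 difference of exposed minus control mice (x axis) with SE bars for the receptors reported here (left) and for other ligands of those receptors (right), in blue for lung and in brown for liver, with the array's gene symbols on the y axis. Filled points passed an adjusted p under 0.05 and open points did not. Ccl7 in the lung, at 1.06, is the filled point.

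Genes induced through NF-kB were set beside the members because this factor acts on several chemokine genes. Of 12 such genes 2 rose in the lung and none fell, beside 0.180% of all probes called higher. The median difference was 0.22, with 11 of 12 above 0. Ccl2, a monocyte attractant, rose by 0.90 (adjusted p = 0.00028, limma), and Tnfaip3, an inhibitor of NF-kB signalling, rose by 0.40 (adjusted p = 0.034, limma). Birc3 differed by 0.34 and Relb by 0.44 (adjusted p = 0.14 and 0.29, limma). Of 19 interferon-induced genes none passed, and their median was 0.0070. Among them Mx1 differed by 0.14, Ifit1 by -0.19 and Irf1 by 0.11 (adjusted p 0.70 to 0.83, limma). Of 12 type 2 response genes none passed, with a median of 0.08. Il33, listed as 9230117N10Rik, differed by 0.37 (adjusted p = 0.16, limma), Retnla by 0.51, Chi3l4 by 0.44 and Arg1 by 0.14. These lists were chosen with earlier results of these data known. The part of these pathways in the chemokine results was not tested.

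Markers of the cells that make or follow these chemokines were counted in the lung in the same way. Of all probes 0.180% were called higher and 0.202% were called in either direction. Dendritic cell markers had 2 of 12 genes higher, none lower and a median of 0.08, and their mean log2 ratio over the list was 1.03 to 1.21 in exposed and 0.88 to 1.07 in control lungs. The called genes were Cd83, a marker of mature dendritic cells, with log2 ratios of 3.97, 4.21 and 4.37 in exposed and 3.55, 3.67 and 3.86 in control lungs (0.52, adjusted p = 0.0015, limma), and Itgae, the integrin CD103 of epithelial dendritic cells and T cells, with 1.93, 2.07 and 2.29 against 1.03, 1.51 and 1.66 (0.66, adjusted p = 0.0032, limma). Neither gene's groups overlapped, as in this direction for 0.336% of all probes. Mgl1, the array's symbol for Clec10a, differed by 0.29 and Xcr1 by -0.08. Cd83 and Itgae were called higher in the same comparison as Ccl17 and the second Ccl19 probe, and their part in the result was not tested.

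Macrophage markers had 2 of 9 genes higher and 2 lower, with list means of 1.43 to 1.60 in exposed and 1.34 to 1.59 in control lungs. Marco and Msr1, scavenger receptors, rose by 0.57 and 0.52 (adjusted p = 0.0092 and 0.020, limma), and Ear1 and Siglecf, genes of alveolar macrophages and eosinophils, fell by 0.48 and 0.70 (adjusted p = 0.00060 and 0.011, limma). T cell markers (12 genes, median 0.03, list means 0.30 to 0.61 in exposed and 0.19 to 0.61 in control lungs), B cell markers (11 genes, median 0.04, 0.59 to 1.27 and 0.49 to 1.01), and natural killer and cytotoxic cell markers (9 genes, median -0.09, 1.40 to 1.83 and 1.35 to 1.95) had no called gene. Of these, Cd5 differed by 0.27, Fcer2a by 0.23 and Gzmb by -0.24 (adjusted p = 0.70, 0.69 and 0.70, limma). Neutrophil markers had no called gene among 9 and a median of -0.24, led by S100a8 at -0.88 (adjusted p = 0.70, limma), and their list means were 0.75 to 1.70 in exposed and 0.76 to 1.63 in control lungs. Lymph node stroma and vessel markers had no called gene among 5 and a median of 0.03, with Pdpn at 0.20 (adjusted p = 0.54, limma).

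Markers of other organs in the lung samples had fitted differences above 0, without a called gene. At an unadjusted p under 0.05 (limma), 5 of 7 hepatocyte and 0 of 7 heart muscle markers were higher, beside 7.13% of all probes in either direction. The heart muscle list means of exposed lungs lay inside the control range. All 7 hepatocyte markers had a difference above 0 (median 0.51), 3 of them (Ttr, Apoa1 and Apob) not well above background on any control array, with list means of 0.58 to 2.25 in exposed and 0.33 to 1.09 in control lungs, and all 7 heart muscle markers did (median 0.41), with list means of 2.16 to 3.65 and 1.34 to 3.76. Alb1, the array's symbol for albumin, differed by 0.87 and Myh6 by 0.41 (adjusted p = 0.69 and 0.75, limma). Of 8 lung epithelial markers Foxj1, of ciliated cells, rose by 0.29 (adjusted p = 0.037, limma), and the median was -0.10. The part of these tissues in the chemokine results was not tested.

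For each member that was well above background on at least 10 of the 13 lung arrays, the 3 genes with the most similar log2 ratios were taken from 17780 probes by Pearson's r over the lung arrays. For Ccl17 they were Pigr (r = 0.94), the carrier of immunoglobulin A across epithelia, Ctsk (r = 0.93), a lysosomal protease, and D17H6S56E-5 (r = 0.93). All 3 were themselves higher in exposed lungs (1.09, 0.96 and 0.62, adjusted p = 0.0080, 0.00068 and 0.0024, limma), so that the group difference enters these values. Within the 7 exposed mice the r of Pigr was 0.66 and within the 6 control mice 0.88. For Ccl19 they were Zmynd15 (0.92), Nfkbie (0.89), an inhibitor of NF-kB, and Btg1 (0.88). Zmynd15 was itself higher in exposed lungs (0.49, adjusted p = 0.0091, limma). Within the exposed mice the r of these 3 genes was 0.90, 0.87 and 0.88, and within the control mice it was 0.57, 0.42 and 0.32.

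For Cxcl9, over 12 arrays, the closest were Slamf7 (0.92), Tnfrsf18 (0.92) and Icos (0.90), surface molecules of activated lymphocytes. Within the exposed mice their r was 0.94, 0.94 and 0.98, and within the control mice it was 0.77, 0.050 and 0.47. For Cxcl9, exposed mouse 20 stood at 2.12 and the other exposed mice with a value at 0.25 to 1.01. The r without mouse 20 was not computed. For Cxcl10 they were Cd44 (0.86), Nup88 (0.85) and AI841821 (0.85), and for Ccl5, over 11 arrays, Cst7 (0.92), 2010106G01Rik (0.91) and Klra15 (0.90), a natural killer cell receptor. For Cxcl13, over 12 arrays, they were Fcna (0.96) and 2 immunoglobulin kappa transcripts (0.94 and 0.93), and for Cxcl12 they were Cftr (0.88), Tmem97 (0.86) and ENSMUST00000032928 (0.86). These values describe arrays that share slides and signal range, and they carry no test.

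**Figure D5:**
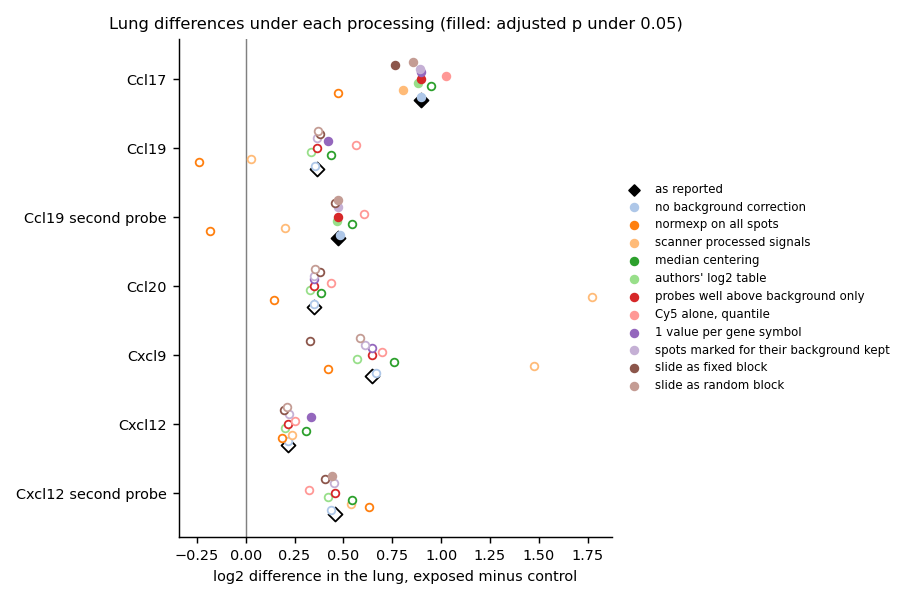
Log2 difference of exposed minus control lung (x axis) of 7 member probes (y axis) under each processing, with diamonds for the setting reported here. Filled symbols passed an adjusted p under 0.05 and open symbols did not. Ccl17 ran from 0.47 to 1.02 and stayed above 0, and both Ccl19 probes fell below 0 with the background model fitted on all spots.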

How the data were processed

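The authors deposited the scanner output of each array, with intensity values for the sample (Cy5) and the reference (Cy3) that are not normalized, and LOWESS-normalized log2 values. The scanner software was version 9.5.3.1 for lung (annotation mm7) and 10.1.1.1 for liver (mm8). Median spot intensities were used. Spots that the software marked as outliers, 2.46% to 4.72% of an array, were left out before background correction (normexp, offset 50). Log2 ratios were normalized within each array by loess with control spots at weight 0, and repeated spots of 1 probe were averaged. Linear models were fitted per probe with limma 3.58.1 (lmFit, eBayes) in R 4.3.3, with statmod 1.5.0 for random blocks and version 1.17.8 of data.table. The Benjamini-Hochberg adjustment ran over all probes with a threshold of 0.05, and a fold is 2 raised to the fitted difference. Each organ had its own fit, and the difference between their effects used all 28 arrays. Single probes also have an exact two-sided permutation p from every possible assignment of the mice, which cannot go below 0.00058 for 7 against 6 mice.

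The direction of a ratio follows the dyes that the labels and methods state, and dyes were not swapped. The authors' log2 values correlated with ratios without background correction at r = 0.993 to 0.997 per array, with array medians of -0.043 to -0.023. The method was tested on simulated data. Arrays of the same mouse in lung and liver pair by number, since they come from 1 animal, and the deviations of 12 such pairs correlated at r = -0.07 to 0.22. The members, gene lists and handling of marked spots were chosen with earlier results of these data known. Named genes were all members and receptors, up to 4 genes of each list by lowest lung p, and the 3 genes most similar to each member, apart from genes that are not reported here. The alternatives are described with their effect in the closing section, and the number of arrays limits the precision. Promoters came from RefSeq (GRCm38.p6), where 8 of 9 members matched. Motifs were searched on both strands, NF-kB by its usual consensus.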

Additional observations from a re-analysis of the deposited data

Results flagged for a closer look

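Cxcl12, second probe, in control lung: mouse 27 had a log2 ratio of -2.41, and the next mouse had -2.86, a gap of 0.92 of the group's range. Without this mouse the lung difference passed (0.54, adjusted p = 0.0085, limma). Ccl5, second probe, in exposed liver: mouse 13 had a log2 ratio of -1.72, and the next mouse had -2.32, a gap of 0.82 of the range. Chance marks about 1 in 20 groups, and 2 of 48 groups were marked by Dixon's test.

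The lung effect exceeded the liver effect for Ccl17 by 0.84 and for the second Cxcl12 probe by 0.52 in the test of the difference itself (adjusted p = 0.016 and 0.037, limma). With mouse as a block, over the 12 mice with both organs, these were 0.85 and 0.56 (adjusted p = 0.16 and 0.12, limma).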

How the results depend on the processing

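In the lung 2 member probes passed, in the liver 0, between the organs of control mice 10 and in the difference of effects 2. The lung count was 0 with the background model fitted on all spots and with median centering, and 1 with the scanner's processed signals, Cy5 alone and slide as a fixed block. With each single array left out, 1 to 2 lung probes passed, with 1 probe (the second Ccl19 probe) without exposed mouse 1 or 13. With 1 value per gene symbol, 3 member genes passed in the lung in place of 1, and 2 in place of 1 in the difference of effects. Probes called in the difference of effects numbered 1 without background correction, in the authors' table and with Cy5 alone, 0 with the background model fitted on all spots, the scanner's processed signals and median centering, and 1 to 2 on leaving out each array. All probes called in the lung numbered 83, and 14 with the background model fitted on all spots, 4 with median centering, 133 with slide as a random block and 64 to 81 without 1 array. The liver had 0 under every setting run, and without background correction 0 in place of 1 member probes had an exact permutation p under 0.05. The scanner's processed signals moved the median of all probes between control organs to -0.11. Keeping spots marked only for their local background was chosen after seeing the data.

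Mouse as a replicate block, fitted over the mice with both organs, left 0 member probes called in the difference of effects and 8 between the organs, and 49 of all probes in place of 64. In the difference of effects the calls of Ccl17 and the second Cxcl12 probe were lost and Ccl22 turned to 0.023. Between organs the calls of Ccl19 and Cxcl13 were lost, and no other member call between organs changed with the block.

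The direction turned as follows, in every case but Ccl19 between organs without a call. Fitted on all spots, the lung values were -0.24 for Ccl19 and -0.18 for its second probe, the liver values were -0.19 for Ccl17, 0.67 and 0.58 for Ccl19 and its second probe, 0.028 for Ccl20, -0.056 and -0.36 for Ccl5 and its second probe, 0.014 for Cxcl10 and 0.0063 for Cxcl13, and the differences of effects were -0.91 and -0.77 for Ccl19 and its second probe, 0.014 and 0.25 for Ccl5 and its second probe, -0.61 for Cxcl13 and -0.36 for Cxcl9. With the scanner's processed signals they were 0.066 for Ccl22 and 0.42 for Cxcl13 in the lung, 0.054 for Ccl22 and -0.021 for Cxcl9 in the liver, 0.013 for Ccl22 in the difference of effects, and -1.004 for Ccl19 and -0.12 for Ccl22 between organs. With median centering they were 0.072 and 0.12 for Ccl5 and its second probe in the lung, 0.0026 for Cxcl10, 0.13 and 0.084 for Cxcl12 and its second probe in the liver, and 0.0026 for Ccl22 in the difference of effects. With Cy5 alone they were 0.0060 for Ccl5 and 0.20 for Ccl22 in the lung, -0.14 and -0.042 for Ccl5 and its second probe, 0.091 for Ccl20 and 0.0085 for Ccl22 in the liver, and 0.14 for Ccl5 and 0.21 for Ccl22 in the difference of effects. With slide as a fixed block they were 0.037 and 0.0097 for Ccl5 and its second probe in the lung, and -0.054 for Ccl5, 0.0052 for Ccl22 and -0.012 for Cxcl9 in the liver. With slide as a random block they were 0.00083 for Ccl5 in the lung, and -0.0045 for Ccl5 and 0.0017 for Ccl22 in the liver. In the authors' table they were 0.090 for Cxcl13 in the lung and -0.14 for Ccl19 between organs, without background correction -0.036 for Ccl19 between organs, with 1 value per gene symbol -0.0017 for Ccl5 in the liver, and with the marked spots kept 0.050 for Cxcl13 in the lung. The cause was not tested.

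On leaving out each array in turn, directions also turned for Ccl5 (-0.065 to 0.054), its second probe (-0.13 to 0.020) and Cxcl13 (-0.38 to 0.18) in the lung, for Ccl5 (-0.080 to 0.068), its second probe (-0.084 to 0.064), Ccl20 (-0.058 to 0.013), Ccl22 (-0.025 to 0.023), Cxcl9 (-0.12 to 0.082) and Cxcl10 (-0.15 to 0.0063) in the liver, and for Ccl5 (-0.088 to 0.070), its second probe (-0.14 to 0.027) and Cxcl13 (-0.17 to 0.39) in the difference of effects. Signal over background limits Ccl22 and Ccl20, which were near background on most arrays.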
